A study of Mus musculus with 6 samples.

Results

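The RNA of 10 proteins that bind RNA and control alternative splicing in neurons was followed: Qk, Rbfox1, Rbfox2, Rbfox3, Nova1, Nova2, Ptbp2, Mbnl1, Mbnl2 and Celf4. They were chosen by symbol, and each of the 10 matched 1 of the 24421 genes of the count table. Qk entered because its counts were lower in the CFA libraries of these same data, so the comparison of CFA with saline is given for the members as a description and supports no claim about them. RNA came from sorted nuclei of the mPFC (medial prefrontal cortex) in Foxp2-Cre mice, with 3 libraries from mice given CFA (Freund's complete adjuvant, which provokes a local inflammation and is used to model lasting pain) and 3 from mice given saline. Both groups carried the Cre transgene and had received, 4 weeks before collection, bilateral injections of a virus for GFP joined to a KASH domain, which holds GFP at the nuclear envelope. Cre is made where Foxp2 is active, so the labelled nuclei are those that the Foxp2 driver reaches. The labels do not give the age of the mice, the time between CFA and collection, or whether a library is 1 mouse, so the spread between libraries may be partly technical.

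Alternative splicing joins different exons of a gene into different messages. These proteins bind short RNA motifs in or near an exon, and where they bind decides whether the exon is kept or skipped. Qk (Quaking) is a STAR-family protein that binds ACUAA-type elements and is best known in glia, where it controls myelin messages. The Rbfox proteins bind UGCAUG, the Nova proteins YCAY clusters and the Mbnl (muscleblind-like) proteins YGCY motifs. Ptbp2, the neuronal polypyrimidine tract-binding protein, holds back exons until neurons mature. Celf4 binds messages of synaptic proteins. Rbfox3 is the antigen known as NeuN, a standard marker of neurons.

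The counts are sums over each gene model of the count table and do not tell isoforms apart. For Qk this matters, since the annotation (GENCODE M21, on the mm10 build) has 3 complete coding forms that share their first 311 codons and differ at the end. The end of each form is shown because a change in the summed Qk count cannot be assigned to any of them. Lower case marks the last codons that all forms share, and capitals mark what follows, up to the stop codon. Qk lies on the minus strand of chromosome 17, and the stop codons end at 10209615 for Qk-204 (341 codons), 10215431 for Qk-201 (325 codons) and 10214169 for Qk-206 (319 codons). The long form is the one known to stay in the nucleus. In the count table the model of Qk ends at 10206471, short of the 3′ UTR of 7014 bases that GENCODE M21 gives Qk-204. The annotation behind the counts therefore differs from the one used for these sequences, and part of that UTR was not counted.
Qk-204: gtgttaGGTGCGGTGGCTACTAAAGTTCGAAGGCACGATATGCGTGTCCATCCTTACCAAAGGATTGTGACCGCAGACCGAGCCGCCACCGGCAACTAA
Qk-201: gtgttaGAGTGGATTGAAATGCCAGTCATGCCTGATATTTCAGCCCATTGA
Qk-206: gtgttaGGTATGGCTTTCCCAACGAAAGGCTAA

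The paralogues are close in protein, while identical runs of their coding bases are short. Rbfox1 and Rbfox3 were identical at 75.1% of 321 aligned residues, Rbfox1 and Rbfox2 at 69.1% of 382, Nova1 and Nova2 at 76.8% of 482, and Mbnl1 and Mbnl2 at 76.6% of 368. The longest run of identical coding bases was 29 between Rbfox1 and Rbfox2, 26 between Mbnl1 and Mbnl2 and 15 between Nova1 and Nova2. The most alike 120-base windows of the coding sequences are shown because reads from these stretches would be the easiest to confuse. Capitals mark positions at which the genes of a family differ, 29 among the Rbfox genes and 16 between the Mbnl genes. Rbfox2 differed from Rbfox1 at 9 of these bases with 0 changed residues, and Rbfox3 differed from Rbfox1 at 27 bases with 4 changed residues. Each window spans an intron, and on mm10 they reach from chr16:7285511-7294075 (plus strand) for Rbfox1, chr15:77102934-77113625 (minus) for Rbfox2 and chr11:118501624-118503740 (minus) for Rbfox3. Those of Mbnl1 and Mbnl2 reach from chr3:60529751-60595659 and chr14:120325359-120379215, both on the plus strand.
Rbfox1: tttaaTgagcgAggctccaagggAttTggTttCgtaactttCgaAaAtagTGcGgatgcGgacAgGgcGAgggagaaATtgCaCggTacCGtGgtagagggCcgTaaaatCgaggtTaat
Rbfox2: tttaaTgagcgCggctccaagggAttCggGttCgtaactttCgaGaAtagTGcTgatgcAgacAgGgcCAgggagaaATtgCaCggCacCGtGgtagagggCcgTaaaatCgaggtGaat
Rbfox3: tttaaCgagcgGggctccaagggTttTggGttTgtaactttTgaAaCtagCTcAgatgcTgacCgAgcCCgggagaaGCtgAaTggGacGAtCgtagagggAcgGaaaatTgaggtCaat
Mbnl1: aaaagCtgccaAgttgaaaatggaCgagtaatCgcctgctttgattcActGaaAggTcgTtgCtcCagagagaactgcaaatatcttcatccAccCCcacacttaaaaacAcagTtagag
Mbnl2: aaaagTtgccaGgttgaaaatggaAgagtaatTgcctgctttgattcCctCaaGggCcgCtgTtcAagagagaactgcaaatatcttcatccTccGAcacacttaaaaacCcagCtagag

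Over whole transcripts, 0 of the 50-base windows of Rbfox1, Rbfox2, Rbfox3 or Ptbp2 occurred in another gene, and for Qk the share was 0.133%. Nova2 was the exception, with 30.8% of its windows also in Gm26821, where a match in either orientation was counted. The kits used do not mark strand, so reads of Nova2 and Gm26821 from these windows cannot be told apart. For Nova1 the share was 3.00%, all with Gm33869. No exon of a member overlapped another gene model of the count table.

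The 6 libraries had total counts of 9673038 to 11850741. Saline replicate 3 stood apart from the other saline libraries. Its chi-square over genes, divided by the degrees of freedom, was 43.3 and 45.9 against them and 22.1 to 38.6 against the CFA libraries, where the pairs without it lay between 16.4 and 27.0. Markers that go with the labels are given as levels only, since no unsorted nuclei or other tissue were there to compare with. Slc17a7, the vesicular glutamate transporter of cortical excitatory neurons, was at 1930 to 2650 CPM (counts scaled to a common library size with TMM factors) over the 6 libraries, and Foxp2 was at 24.0 to 43.7 CPM. Markers of other cells were present in every library, with a summed level of 331 to 524 CPM for 12 oligodendrocyte markers and 530 to 733 CPM for 12 astrocyte markers. In bulk samples, fewer cells of a type and less RNA per cell cannot be told apart.

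Qk was lower in all 3 CFA libraries than in any saline library. Its gene spans 112.9 kb of the minus strand of chromosome 17 (10206471 to 10319361, mm10), and its counts ran from 215 to 874. Qk was at 26.9, 31.8 and 20.7 CPM in CFA replicates 1, 2 and 3, and at 78.2, 63.7 and 42.2 CPM in saline replicates 1, 2 and 3. The groups did not overlap, and the nearest values were 31.8 CPM in CFA replicate 2 and 42.2 CPM in saline replicate 3. The mean was 26.5 ± 5.59 CPM (SD, n = 3) in CFA and 61.4 ± 18.1 CPM in saline libraries. As a log2 fold change, CFA minus saline throughout, this was -1.21 ± 0.25 (SE). Within groups, the SD of log2 CPM was 0.39 for Qk, against 0.48 for Nova1 and 0.13 to 0.26 for the other 8 members.

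**Figure D1:**
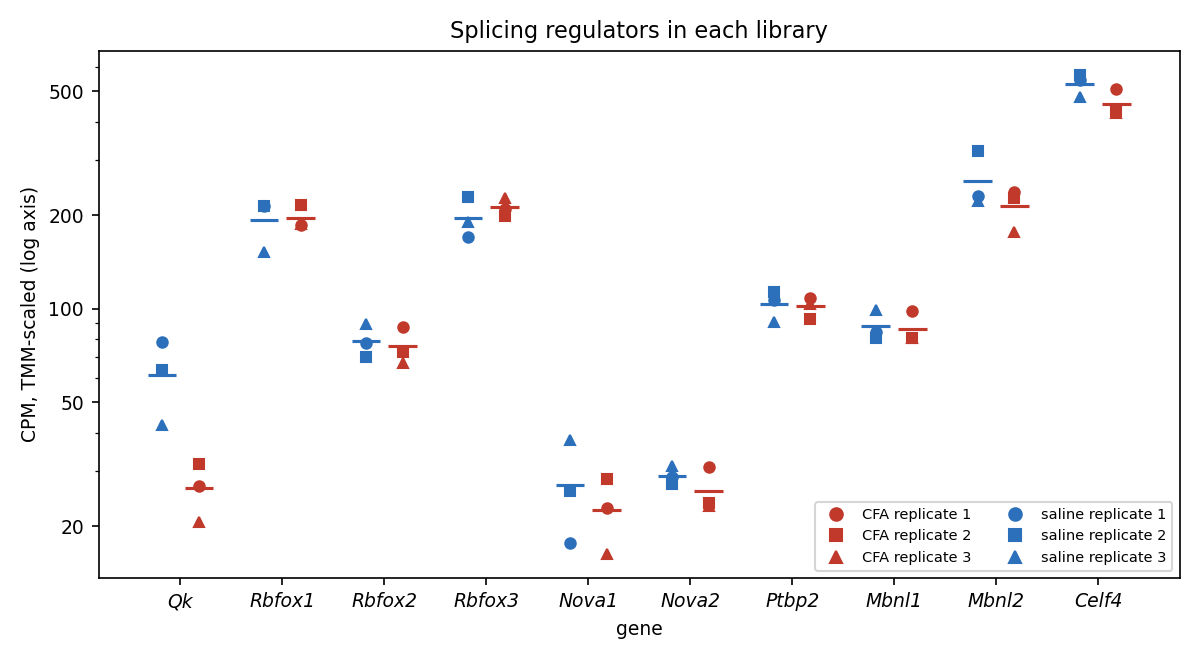
CPM of the 10 splicing regulators in each library on a log axis, saline in blue and CFA in red, with a short line at each group mean. The Qk values of CFA (20.7 to 31.8 CPM) lie below those of saline (42.2 to 78.2 CPM), and the values of the other 9 genes overlap between groups.

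Rbfox proteins mark and shape mature neurons, and the values of all 3 of their genes overlapped between groups. Rbfox1, whose gene of 1527.7 kb is the longest of the members (chromosome 16, 5884793 to 7412480), was at 186, 215 and 187 CPM in CFA and 214, 214 and 152 CPM in saline libraries. The lowest value was in saline replicate 3, and the groups overlapped, with a log2 fold change of 0.02 ± 0.18 (SE). Rbfox3 (chromosome 11, 118489760 to 118911597) was at 210, 199 and 228 CPM in CFA and 170, 229 and 190 CPM in saline libraries. It was the member with the largest positive difference, 0.11 ± 0.17, which is within its error. Rbfox2 (chromosome 15, 77078990 to 77307053), which is also made outside neurons, was at 87.4, 72.9 and 66.8 CPM in CFA and 77.4, 70.1 and 89.7 CPM in saline libraries. Saline replicate 3 was the highest of the 6, and the log2 fold change was -0.06 ± 0.19.

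Nova proteins control splicing of synaptic messages, and by the mean over all 6 libraries their genes were the lowest members. In CFA alone the mean RPKM (CPM per kilobase of exon) of Qk, 2.68, was below those of Nova1 (3.22) and Nova2 (3.11). This order depends on the division by length, since the CFA means were 26.5 CPM for Qk, 22.5 for Nova1 and 26.0 for Nova2. Nova1 (chromosome 12, 46694517 to 46818775) was at 22.9, 28.3 and 16.3 CPM in CFA and 17.7, 25.9 and 37.9 CPM in saline libraries. Its lowest value, in CFA replicate 3, and its highest, in saline replicate 3, lay in different groups, while saline replicate 1 was below 2 of the CFA libraries. Its log2 fold change was -0.27 ± 0.30 (SE), and -0.50 without saline replicate 1 but 0.05 without saline replicate 3. Nova2 (chromosome 7, 18925888 to 18965319) was at 31.0, 23.8 and 23.2 CPM in CFA and 28.8, 27.3 and 31.3 CPM in saline libraries. Its log2 fold change was -0.16 ± 0.22, subject to the windows shared with Gm26821.

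Ptbp2 (chromosome 3, 119718742 to 119783388) had the smallest coefficient of variation over the 6 libraries, 8.90%. It was at 108, 92.5 and 104 CPM in CFA and 107, 113 and 90.5 CPM in saline libraries, and the log2 fold change was -0.02 ± 0.17 (SE). The CFA values lay within the range of the saline values.

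Of the muscleblind-like proteins, which bind messages both in the nucleus and in the cytoplasm, Mbnl1 (chromosome 3, 60472830 to 60629748) was at 98.6, 80.4 and 80.3 CPM in CFA and 84.0, 80.3 and 99.2 CPM in saline libraries. Its log2 fold change was -0.02 ± 0.18 (SE). Mbnl2 (chromosome 14, 120275669 to 120431698) was at 237, 227 and 177 CPM in CFA and 230, 322 and 222 CPM in saline libraries. Saline replicate 2 stood above the rest and CFA replicate 3 below. The log2 fold change of Mbnl2 was -0.27 ± 0.19, and -0.08 without saline replicate 2.

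Celf4, a member of the CUGBP and Elav-like family found in excitatory neurons, was the most abundant member (chromosome 18, 25477620 to 25753983). It was at 508, 433 and 425 CPM in CFA and 545, 566 and 481 CPM in saline libraries. CFA replicate 1 exceeded saline replicate 3, so the groups overlapped, and the log2 fold change was -0.22 ± 0.17 (SE).

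**Figure D2:**
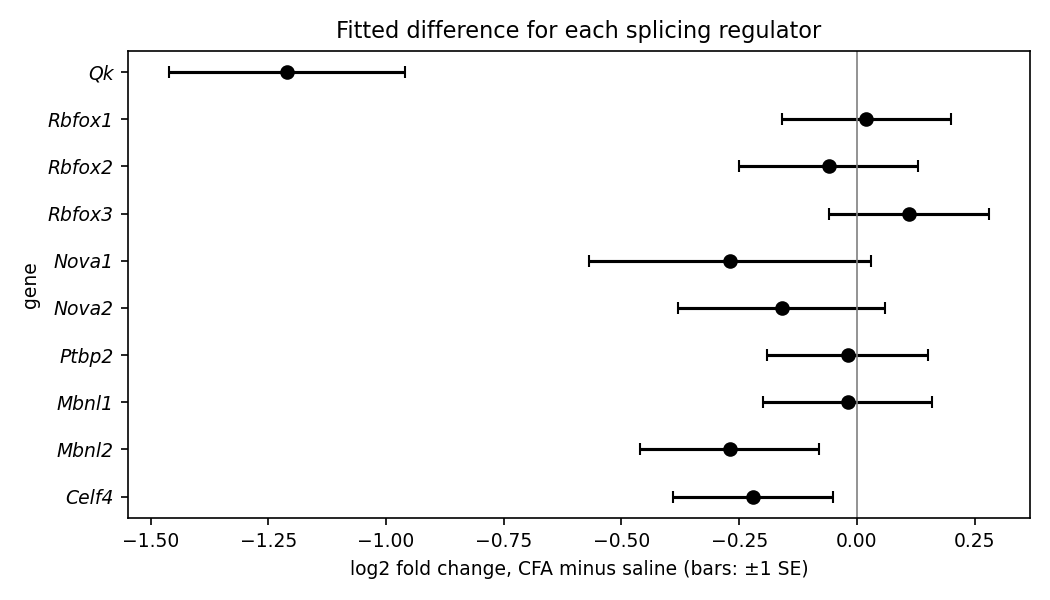
Fitted log2 fold change of each gene, CFA minus saline, with bars of 1 SE on each side. Qk lies at -1.21, and the other 9 genes lie between -0.27 (Mbnl2 and Nova1) and 0.11 (Rbfox3).

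As a list, the 10 members had 8 negative and 2 positive log2 fold changes and a median of -0.11, and over all genes tested 50.2% were negative. Qk was the 1 member without overlap between groups, in the direction that 3.97% of the 13560 tested genes showed (lower in CFA). By the quasi-likelihood test of edgeR (Benjamini-Hochberg adjusted) 0 members were called, and 0% of all genes were, with 437 genes and 1 member (Qk) at an unadjusted p under 0.05. DESeq2 called 5 genes (0.0369% of those with an adjusted p), Qk among them, and limma-voom called 0. Qk was also the 1 member called by edgeR without a filter on low counts, where 0.0498% of genes were called, and without saline replicate 3, where 0.0361% were. The 95% intervals of the 9 members other than Qk were widest for Nova1, from -0.90 to 0.36, and reached from -0.37 to 0.41 for Rbfox1 and from -0.39 to 0.34 for Ptbp2, so changes of such sizes were not excluded.

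The order of levels did not enter the choice of the members other than Qk, and genes were compared per length (RPKM, with the same scaling as CPM). The length was that of all merged exons of a gene, which can exceed that of a single transcript. It was 5481 bases for Rbfox1, 4921 for Rbfox3 and 3364 for Ptbp2. The transcripts used for their sequences had 1407, 3150 and 3364 bases. The order and the ratios between genes depend on this length, and lengths of single transcripts were not tried. Qk was chosen for its low counts in the CFA libraries, which enter its mean and its place in the order. The mean RPKM of Qk was 2.68 in CFA and 6.21 in saline libraries. Over the 6 libraries the mean RPKM was 88.9 ± 10.4 (SD) for Celf4, 51.8 ± 10.4 for Mbnl2, 41.5 ± 4.64 for Rbfox3, 35.5 ± 4.56 for Rbfox1 and 30.5 ± 2.71 for Ptbp2. Below these came Mbnl1 at 15.0 ± 1.59, Rbfox2 at 10.5 ± 1.27, Qk at 4.44 ± 2.28, Nova1 at 3.55 (2.33 to 5.41) and Nova2 at 3.29 ± 0.418 RPKM. Celf4 was above 93.4% of the genes tested and Nova2 above 26.5%. Per length, the geometric mean ratio of Rbfox3, the NeuN antigen, to Rbfox2 was 3.95 and that of Rbfox1 to Rbfox2 was 3.37.

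Each of the 9 neighbouring pairs in this order was compared within libraries, with a two-sided exact sign-flip permutation test that cannot go below p = 0.0312 with 6 libraries. The sort itself fixes which neighbour is named first. In 5 pairs the first gene was higher in 6 of 6 libraries (p = 0.0312, adjusted p = 0.0563, exact permutation test): Celf4 over Mbnl2 (1.73-fold), Rbfox1 over Ptbp2 (1.16-fold), Ptbp2 over Mbnl1 (2.04-fold), Mbnl1 over Rbfox2 (1.43-fold) and Rbfox2 over Qk (2.62-fold). The last of these draws on the CFA values that Qk was chosen for, so its p-value supports no claim. It also pools groups that differ in Qk: the log2 ratio of Qk to Rbfox2 was -1.96 ± 0.29 (SD, n = 3) in CFA and -0.83 ± 0.60 in saline libraries. The adjusted values missed 0.05 for all 9 pairs. With 5 pairs at the lowest p that the exact permutation test can give, no adjusted p could fall below 0.0563. For these 5 pairs the miss is therefore not evidence against the order. Mbnl2 over Rbfox3 and Rbfox3 over Rbfox1 held in 5 of 6 libraries (adjusted p = 0.0938 and 0.121, exact permutation test). The differences of Qk to Nova1 and of Nova1 to Nova2 were within their spread over the 6 libraries. For Qk this spread includes the difference between groups that it was chosen for. Qk and Nova2 were not compared by the test. In saline libraries Qk was at 7.92, 6.45 and 4.27 RPKM and Nova2 at 3.44, 3.26 and 3.74 RPKM. In CFA libraries Qk was at 2.72, 3.22 and 2.09 RPKM and Nova2 at 3.71, 2.84 and 2.77 RPKM. Qk was above Nova1 per length in 2 of 6 libraries, saline replicates 1 and 2, with an adjusted p of 0.668 in the exact permutation test. In CPM, without length scaling, Qk was above Nova1 in every library. Nova1 was above Nova2 per length in 3 of 6 libraries (adjusted p = 0.688, exact permutation test).

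**Figure D3:**
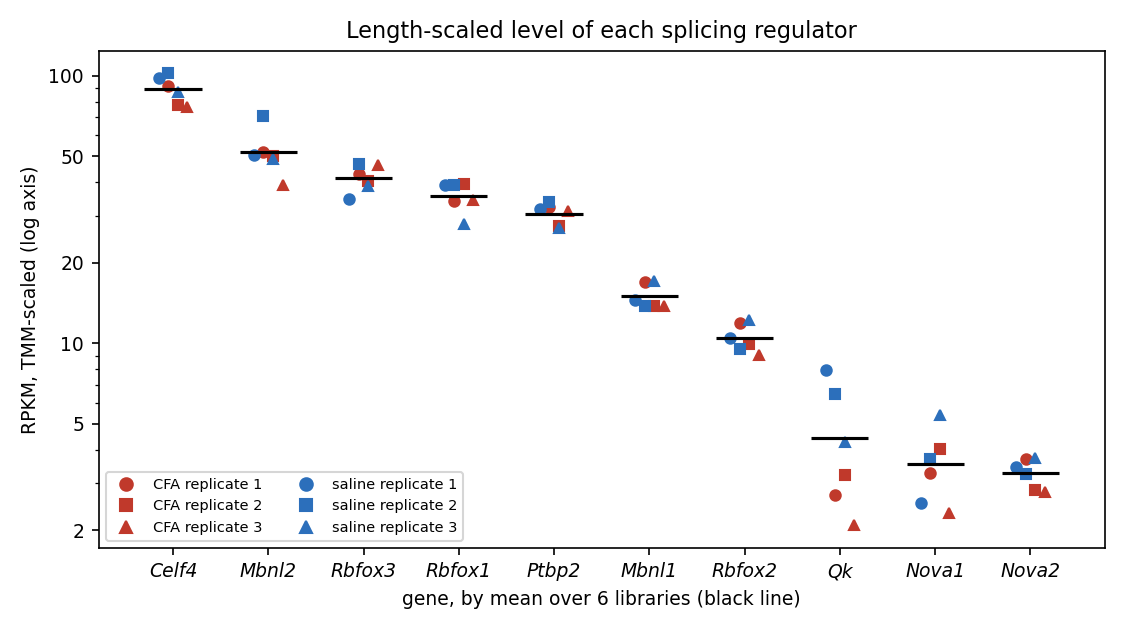
RPKM of each gene in the 6 libraries on a log axis, ordered by the mean over all libraries (black line). Celf4 (88.9 RPKM) is at the top, and Qk, Nova1 and Nova2 (3.29 to 4.44 RPKM) lie together at the bottom.

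Ratios within a library do not depend on the scaling between libraries. The log2 ratio of Rbfox1 to Rbfox3 in RPKM was -0.27 ± 0.21 (SD, n = 3) in CFA and -0.18 ± 0.33 in saline libraries. Mbnl2 to Mbnl1, as a ratio of RPKM, was 3.06, 3.61 and 2.81 in CFA against 3.49, 5.11 and 2.86 in saline libraries. Both ratios overlapped between groups, as did Nova1 to Nova2, which ranged from 0.735 to 1.45 over the 6 libraries. The Qk to Rbfox2 ratio was 0.229, 0.325 and 0.230 in CFA and 0.753, 0.677 and 0.350 in saline libraries, which restates the counts that Qk was chosen for, over a denominator whose groups overlapped.

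The members did not share 1 pattern over the 6 libraries. Among the 45 pairs, Pearson's r of log2 CPM ranged from -0.77 (Rbfox1 and Mbnl1) to 0.96 (Rbfox2 and Mbnl1), as a description over 6 libraries that also share depth and treatment. Rbfox2, Mbnl1 and Nova2 had the highest values of r among themselves, with 0.88 for Rbfox2 and Nova2 and 0.84 for Nova2 and Mbnl1. Celf4 was the member most like Qk (r = 0.81), followed by Mbnl2 (r = 0.65), and Rbfox3 was least like it (r = -0.52).

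The genes most like Qk were sought among 8778 other genes whose log2 CPM averaged 4 or more. The nearest 5 were Gprin3 (r = 0.995), Ccdc64 (0.988), Zbtb25 (0.983), Polb (0.983) and Brd1 (0.979), over 6 libraries and chosen for this likeness. Gprin3, a G protein-regulated inducer of neurite outgrowth, was at 28.8, 30.5 and 23.9 CPM in CFA and 44.8, 40.2 and 34.0 CPM in saline libraries. It had the same order of libraries as Qk over a narrower range. Brd1, a subunit of a histone acetyltransferase complex, was at 28.1, 27.5 and 23.7 CPM in CFA and 62.7, 56.1 and 34.6 CPM in saline libraries. Polb, the repair DNA polymerase beta, followed the order of Qk within 56.4 to 61.3 CPM, so likeness of pattern says nothing of the size of a difference.

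**Figure D4:**
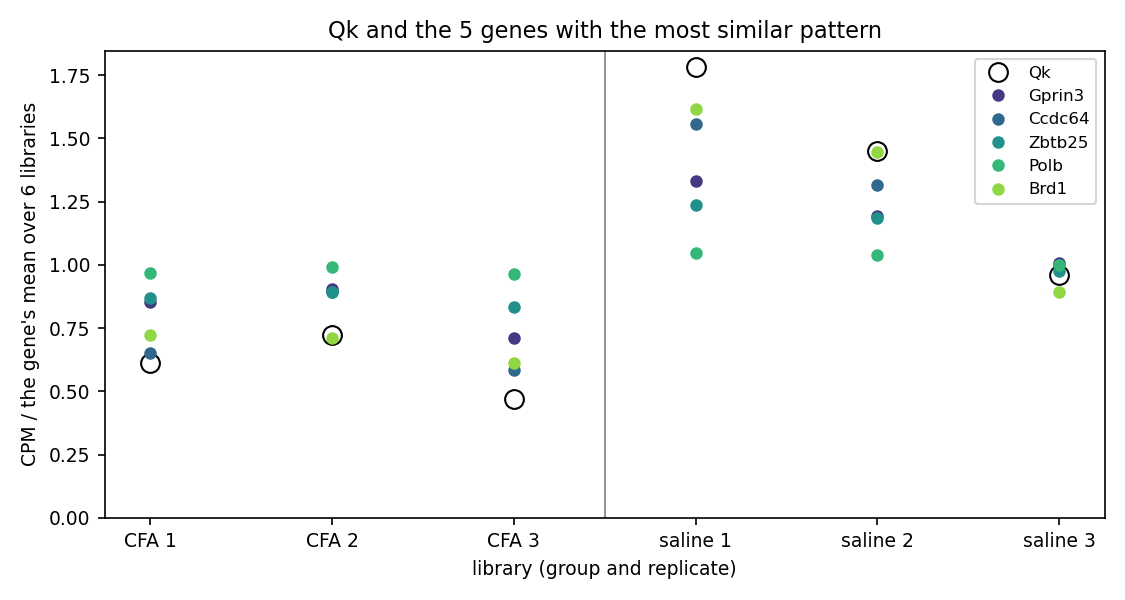
CPM divided by the gene's own mean over the 6 libraries, for Qk (open circles) and the 5 genes with the highest correlation to it. All 6 genes are lowest in CFA replicate 3 and highest in saline replicate 1, and Polb has the narrowest range.

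Qk is made in large amounts by glia, so glial markers are given beside it. The 12 oligodendrocyte markers summed to 524, 422 and 331 CPM in CFA and 478, 361 and 374 CPM in saline libraries, and the 12 astrocyte markers to 607, 733 and 531 against 530, 601 and 581 CPM. The groups overlapped for both sums, none of these markers was at 0 in any library, and 5 of 12 and 6 of 12 had a higher mean in CFA. Of the single astrocyte markers, 3 of 12 were higher in CFA without overlap between groups, where 3.55% of all genes tested were. Among them the glycolytic enzyme Aldoc was at 168, 209 and 150 CPM in CFA and 131, 134 and 108 CPM in saline libraries, and its log2 fold change was 0.50 ± 0.18 (SE). Slc1a2, the most abundant astrocyte marker, was at 299, 363 and 258 CPM in CFA and 278, 352 and 338 CPM in saline libraries. Its groups overlapped, and its log2 fold change was -0.07 ± 0.18. The 12 microglia markers summed to 138, 170 and 108 against 136, 87.6 and 93.9 CPM, with 10 of 12 higher in CFA. The 8 oligodendrocyte precursor markers summed to 41.0 to 56.8 CPM in CFA and 38.7 to 47.6 CPM in saline libraries, with 3 of the 8 at 0 in at least 1 library. Among the 7 precursor markers tested, 2 were higher and 1 was lower in CFA without overlap, where 3.55% and 3.97% of all genes tested were. Olig1, a transcription factor of the lineage, was at 20.5, 23.9 and 17.7 CPM in CFA and 13.7, 10.3 and 13.1 CPM in saline libraries, without overlap. Lhfpl3 was at 12.7, 12.1 and 10.1 CPM in CFA and 11.5, 22.0 and 14.7 CPM in saline libraries, with overlap and a log2 fold change of -0.46 ± 0.30 (SE). All 7 inhibitory neuron markers had a higher mean in CFA, and their sums of 185, 177 and 112 CPM in CFA and 170, 134 and 113 CPM in saline libraries overlapped. Their median log2 fold change was 0.27, and 0 of the 7 were without overlap between groups. The 2 most abundant, Gad1 and Sst, had log2 fold changes of 0.11 ± 0.24 and 0.01 ± 0.25 (SE). Saline replicate 1, the highest in Qk, also had the highest vascular sum, 17.4 CPM against 3.85 to 9.73 CPM in the other libraries, with 6 of 8 vascular markers at 0 in at least 1 library. The part of any of these cell types in the Qk level was not tested. The RNAs kept in the nucleus, Malat1, Meg3 and Snhg11, summed to 45100 CPM in saline replicate 3 and to 21700 to 31700 CPM elsewhere. Without saline replicate 3 the log2 fold change of Qk was -1.42, and without saline replicate 1 it was -1.0.

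**Figure D5:**
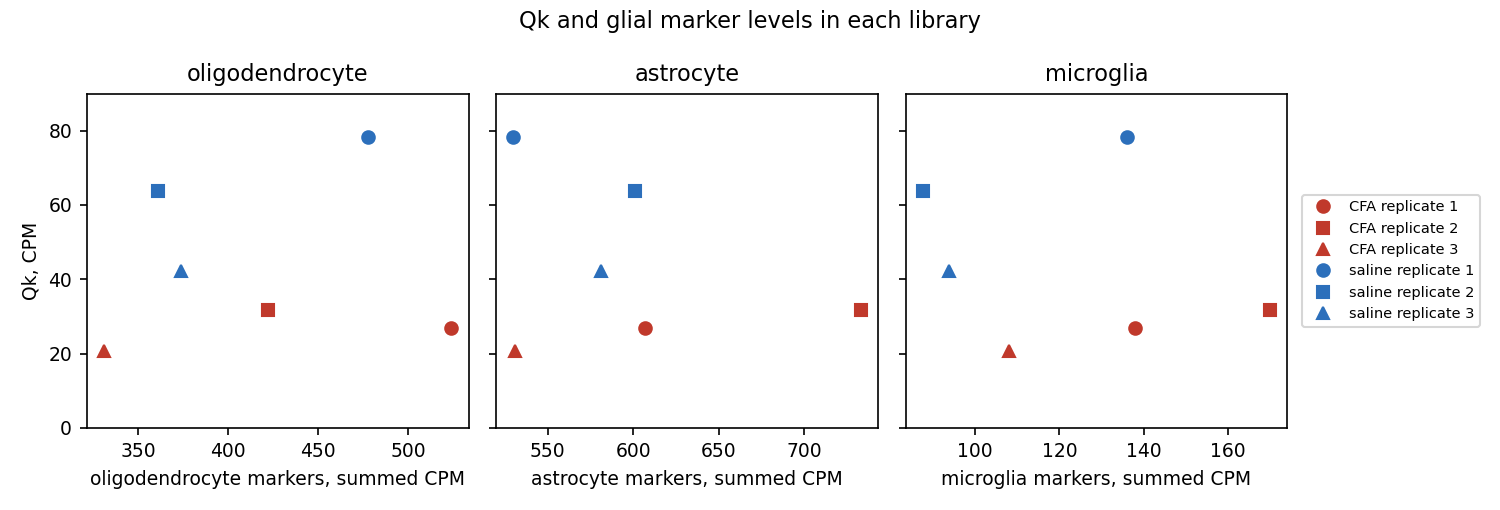
Qk (CPM) against the summed CPM of oligodendrocyte, astrocyte and microglia markers, 1 point per library. CFA libraries are in red (20.7 to 31.8 CPM of Qk) and saline libraries in blue (42.2 to 78.2 CPM), and the oligodendrocyte sums run from 331 to 524 CPM in CFA and from 361 to 478 CPM in saline libraries.

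Messages known to be bound or controlled by Qk were looked at as a list of 10. Of these 0 were called, 6 had a negative and 4 a positive log2 fold change, and the median was -0.10. Mbp, the myelin basic protein message that Qk binds, was at 191, 176 and 131 CPM in CFA and 152, 158 and 145 CPM in saline libraries, and its log2 fold change was 0.13 ± 0.18 (SE). Mag, a myelin adhesion protein, was at 15.5 ± 7.33 CPM (SD, n = 3) in CFA and 15.1 ± 3.49 CPM in saline libraries. Macf1, a linker of microtubules and actin, was at 182, 126 and 125 CPM in CFA and 181, 136 and 362 CPM in saline libraries, so that its log2 fold change of -0.65 ± 0.29 went with a high value in saline replicate 3 (-0.13 without it, also chosen after seeing the data). Cdkn1b, an inhibitor of the cell cycle, was at 2.57 ± 0.308 and 4.79 ± 2.53 CPM.

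Other tissue-restricted splicing regulators were a list of 23, of which 20 passed the filter on low counts, all but Mbnl3, Esrp1 and Esrp2. Of the 20, 0 were called, 12 were negative and 8 positive, and the median log2 fold change was -0.17. Khdrbs3 (SLM2), like Qk a STAR-family protein, was at 97.4, 117 and 103 CPM in CFA and 408, 233 and 86.0 CPM in saline libraries. It was high in saline replicates 1 and 2, the libraries in which Qk was highest, but in saline replicate 3 it was below all CFA libraries, and its log2 fold change was -1.19 ± 0.37 (SE). Left-out libraries, an alternative chosen after seeing the data, gave -0.60 without saline replicate 1 and -1.60 without saline replicate 3. Srrm4, which drives inclusion of neuronal microexons, was at 38.9, 40.3 and 37.4 CPM in CFA and 50.9, 57.3 and 62.4 CPM in saline libraries, without overlap, and its log2 fold change was -0.55 ± 0.19. In the other direction Ptbp1, the relative of Ptbp2 found outside neurons, was at 27.8 ± 4.26 CPM (SD, n = 3) in CFA and 20.7 ± 9.68 CPM in saline libraries. Raver1, a partner of Ptbp1, was at 10.2 ± 0.477 and 7.07 ± 0.703 CPM, and its groups did not overlap. Of the 20 tested, 1 was lower (Srrm4) and 1 higher (Raver1) in CFA without overlap, where 3.97% and 3.55% of all genes tested were.

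Among general splicing factors, all 15 SR proteins, which recruit the spliceosome to exons, were tested, with 0 called, 9 negative and a median of -0.02. The SR-related matrix proteins Srrm1 and Srrm2 had the smallest p among those lower in CFA. Srrm1 was at 102, 84.8 and 97.1 CPM in CFA and 117, 115 and 138 CPM in saline libraries, and Srrm2 at 427 ± 75.0 and 587 ± 187 CPM (SD, n = 3). Srsf3 and Srsf4, with the smallest p in the other direction, had log2 fold changes of 0.18 ± 0.17 and 0.14 ± 0.27 (SE). All 25 hnRNP proteins, which bind nascent RNA, were tested, with 0 called, 15 negative and a median of -0.08. Hnrnpd was at 101, 85.6 and 83.0 CPM in CFA and 104, 117 and 110 CPM in saline libraries. Hnrnpul2 had a log2 fold change of -0.30 ± 0.22, Hnrnpf of 0.26 ± 0.22 and Hnrnpab of 0.10 ± 0.19.

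Rbfox proteins work in a large assembly of splicing regulators, and its 9 listed partners were near 0 as a list. Of these 0 were called, 5 were negative and 4 positive, and the median was -0.06. Ilf2, which binds double-stranded RNA as part of a complex, had a log2 fold change of 0.12 ± 0.16 (SE), and Tardbp, which encodes TDP-43, had -0.22 ± 0.19.

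Splicing regulators are themselves often targets of RNA-binding proteins, so the first 1000 bases of the 3′ UTR of each member were searched on the transcript strand. A window of that length was present for 9 members in the chosen transcript, all but Rbfox1. The Rbfox element TGCATG occurred in 6 of the 9 (Qk, Rbfox3, Nova1, Ptbp2, Mbnl1 and Mbnl2, 1 match each) and in 28.9% of 8937 genes with such a window. The Qk elements ACTAAC and ACTAAT occurred in 2 of the 9 (Rbfox3 and Mbnl1) and likewise in 28.9% of these genes. The site in Qk (chr17:10209152-10209177, minus strand, mm10) and those of both elements in Rbfox3 (chr11:118492043-118492068 and chr11:118491988-118492013, minus strand) and Mbnl1 (chr3:60626490-60626515 and chr3:60627091-60627116, plus strand) are shown with the element in capitals. Rbfox3 and Mbnl1 were picked because both elements occurred in them, and Qk because its own element was searched for. A match is a description of letters and was not tested for binding.
Qk, Rbfox element: caatgcatcaTGCATGaaccttcggt
Rbfox3, Rbfox element: caagagtaacTGCATGccctctctgg
Rbfox3, Qk element: attaaagtttACTAACcatcttcctg
Mbnl1, Rbfox element: atccacatatTGCATGttaaccagaa
Mbnl1, Qk element: atttgctagtACTAATcaatcaaagg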

How the data were processed

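RNA of 6 libraries of 10000 sorted nuclei each was made into cDNA with the Smart-seq V4 kit (9 PCR cycles) and prepared with Nextera XT from 300 ng of cDNA, per the labels' protocols. The authors deposited raw counts per gene, not normalized, with exon intervals and exon length, per the file headers. The submitters' processing notes name featureCounts 2.0.1, HISAT2 2.2.1, Trim Galore, edgeR 3.32.1 and SAMtools 1.13, with the build mm10. Settings for strand and multi-mapping are not given in the sources used. Deposited exon lengths equalled the merged exon intervals for all 24421 genes.

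The whole table was fitted with edgeR 4.0.16 (R 4.3.3): quasi-likelihood test, TMM, default filterByExpr (13560 genes tested), treatment as the only term, Benjamini-Hochberg threshold 0.05. Standard errors come from the F statistic, and 95% intervals use the t quantile at the fit's total degrees of freedom, residual plus prior. CPM and RPKM were computed from the counts with TMM-scaled library sizes. Log2 CPM used a prior count of 2. All 10 members passed the filter. Fits were tested on simulated data. No 2 libraries agreed within sampling noise (the lowest chi-square was 16.4 per degree of freedom). A count of 3, the limit that a count of 0 allows, is 0.253 to 0.31 CPM by unscaled library totals, for counting error only.

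The members and lists were chosen with earlier results of these data known. Named genes were all members, the 2 with the smallest p in each direction from each pathway list, the 2 most abundant of a marker list where used, and the 5 genes most correlated with Qk. A gene that this rule names is not reported here. Alternatives were RLE and library-size scaling, no filter or a floor of 5 CPM in 3 libraries, limma-voom (limma 3.58.1), DESeq2 1.42.0 after the same filter, a threshold of 0.1, offsets that remove a trend with exon length, a replicate block, and each library left out.

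Sequences are from GENCODE M21 transcripts (mm10), from the transcript with the longest complete coding sequence of each gene. Protein sequences were aligned after translation.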

Additional observations from a re-analysis of the deposited data

How the results depend on the processing

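The count of genes called was 0 in the fit on 6 libraries with treatment alone, and 0 with RLE or library-size scaling, a floor of 5 CPM in 3 libraries, limma-voom, offsets for exon length and a threshold of 0.1. It was 9 without a filter on low counts, 5 with DESeq2 and 6 with the replicate block, and ran from 0 to 5 when each library was left out, with 5 without saline replicate 3. Of the members, Qk was called (1 of 10) without the filter, with DESeq2 and without saline replicate 3 (adjusted p of 0.0265, 0.0252 and 0.0499), and in leave-one-out fits the count ran from 0 to 1. The replicate block gave Qk an adjusted p of 0.062 and called 0 members. Same-numbered libraries did not deviate together (r of -0.079, 0.025 and -0.069), so no pairing by number was seen. These values were not set against those of libraries with different numbers, and a batch shared by number was not tested. The log2 fold change of Qk stayed between -1.42 and -1.0 over 14 alternatives, and those of Celf4 (-0.31 to -0.17), Mbnl2 (-0.37 to -0.08), Nova2 (-0.32 to -0.08) and Rbfox3 (0.02 to 0.24) kept their sign. The sign changed in 3 alternatives for Rbfox1 and Mbnl1, in 2 for Rbfox2 and Ptbp2 and in 1 for Nova1. In the order of levels 0 of 9 pairs passed under RLE scaling, without length scaling and with any library left out, where 5 libraries cannot give a p below 0.0625 in the exact permutation test. Without length scaling 8 of the 9 pairs kept the direction of their mean difference, and the smallest adjusted p was 0.0703 (exact permutation test). In CPM, Rbfox2 was below Qk in saline replicate 1 (77.4 and 78.2). Ptbp2 was below Mbnl1 in saline replicate 3 (90.5 and 99.2 CPM).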
